A study of Homo sapiens with 12 samples.

Results

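The 8 genes described here are replication-type histone genes that lie in the clusters of histone genes on chromosomes 6 and 1, and that are known to give some polyadenylated transcripts. They were HIST1H2BK, HIST1H2BD, HIST2H2BE, HIST1H2BJ and HIST1H2BC, which encode histone H2B, HIST1H2AC, which encodes H2A, HIST1H1C, which encodes the linker histone H1.2, and HIST1H4H, which encodes H4. They were taken by symbol, 8 of 58233 genes in the table, and every member was found. The table lists 87 entries with clustered histone symbols, the 8 members included, and some of the 87 are pseudogenes by their symbols. Of the 8 members, 7 had a value above 0 in at least 1 library and 2, HIST1H2BK and HIST1H1C, were high enough to be tested. HIST1H2BK needed its libraries from drug-treated cells to reach that level.

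Clustered histone genes supply histones for the DNA made in S phase, when cyclin E and CDK2 activate their transcription through NPAT. Most of their transcripts are not polyadenylated but end just after a short stem-loop, which is bound by the stem-loop binding protein SLBP and is needed to process and later degrade the mRNA. Some of these genes also give longer, polyadenylated transcripts, which have been described in cells that leave the cell cycle or differentiate.

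HL-60 is a human acute myeloid leukaemia cell line that can be driven to differentiate by all-trans retinoic acid (ATRA), and palbociclib inhibits CDK4 and CDK6. Poly(A)+ RNA was sequenced from HL-60 cells, genotype labelled wt, grown in RPMI medium with 10% fetal calf serum. There were 4 groups of 3 libraries, all with a time of 3 h. They comprised a group without drug (untreated), a group with ATRA at 100 nM, a group with palbociclib at 500 nM, and a group with both drugs at these doses (the combination). No vehicle is named for the untreated cells, and the labels do not say whether the 3 libraries of a group were separate cultures, so the p-values measure the spread between these libraries. The values are RPKM, reads per kilobase of gene scaled to the size of the library, that the authors rounded to whole numbers, so the depth of each library is unknown and differences near 1 RPKM cannot be resolved.

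Genes known to respond to the drugs were checked first. The retinoid targets DHRS3 and HIC1 were at 0 to 1 RPKM in the 6 libraries without ATRA, whereas DHRS3 reached 40 to 50 RPKM and HIC1 8 to 12 RPKM in the 6 libraries with it. CYP26A1, another retinoid target, was listed at 0 in all 12. The E2F-dependent gene CCNE1 was at 8 to 15 RPKM in the 6 libraries without palbociclib and at 4 to 5 in the 6 with it, and E2F1 was at 8 to 14 and at 3 to 5. Of 8 promyelocytic markers, 7 were high enough to test, with MPO at 1077 to 1579 RPKM and ELANE at 0 to 1. Of 10 genes taken as markers of other cell types, 8 were listed at 0 in every library. The sum of the 10 was 2 RPKM in each untreated library, 5 to 7 with ATRA, 2 to 3 with palbociclib and 5 to 7 with the combination. It was carried by PECAM1 and CD79A, and the values do not show that these transcripts came from other cells.

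The stem-loop is shown first because transcripts that end just after it are mostly not polyadenylated. A longer transcript can hold it too, as in the only model of HIST2H2BE. In the reference genome (GRCh38) all 8 members carried it, 28 to 57 bases after the stop codon. The arms of the stem were the same 6 bases in 7 members and differed in 1, HIST1H4H. The elements of the most abundant members, of HIST1H2BJ and of HIST1H4H are given below, 26 bases each, 5′ to 3′ on the transcribed strand, with the 2 arms of the stem in capitals.

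HIST1H1C (chr6:26055739-26055764, minus strand): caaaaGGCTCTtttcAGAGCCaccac
HIST1H2BK (chr6:27146361-27146386, minus strand): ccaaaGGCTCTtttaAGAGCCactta
HIST1H2BJ (chr6:27132316-27132341, minus strand): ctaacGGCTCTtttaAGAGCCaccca
HIST1H4H (chr6:26285126-26285151, minus strand): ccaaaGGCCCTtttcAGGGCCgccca

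The annotation held both kinds of transcript for most members. GENCODE v44 lists 17 transcript models for the 8 genes, of which 7 end 4 to 6 bases past the stem and 10 end 1729 to 37155 bases past it. A poly(A) signal (AATAAA or ATTAAA) lay in the last 50 bases of 7 of the 10 long models and of 0 of the 7 short ones. The long models belong to 6 members. Neither HIST1H1C nor HIST1H2BK, the members with the highest values, has one. HIST1H1C (chromosome 6, 26055740 to 26056470) and HIST1H2BK (chromosome 6, 27146361 to 27146855) each have a single model of 1 exon that ends at the stem-loop. In RefSeq, however, HIST1H2BK ends 8068 bases beyond its stem-loop, and it is 1 of 4 members with such an end there, while HIST1H1C ends at the stem-loop in that annotation too. The values in the table do not show which end a counted read came from.

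**Figure D1:**
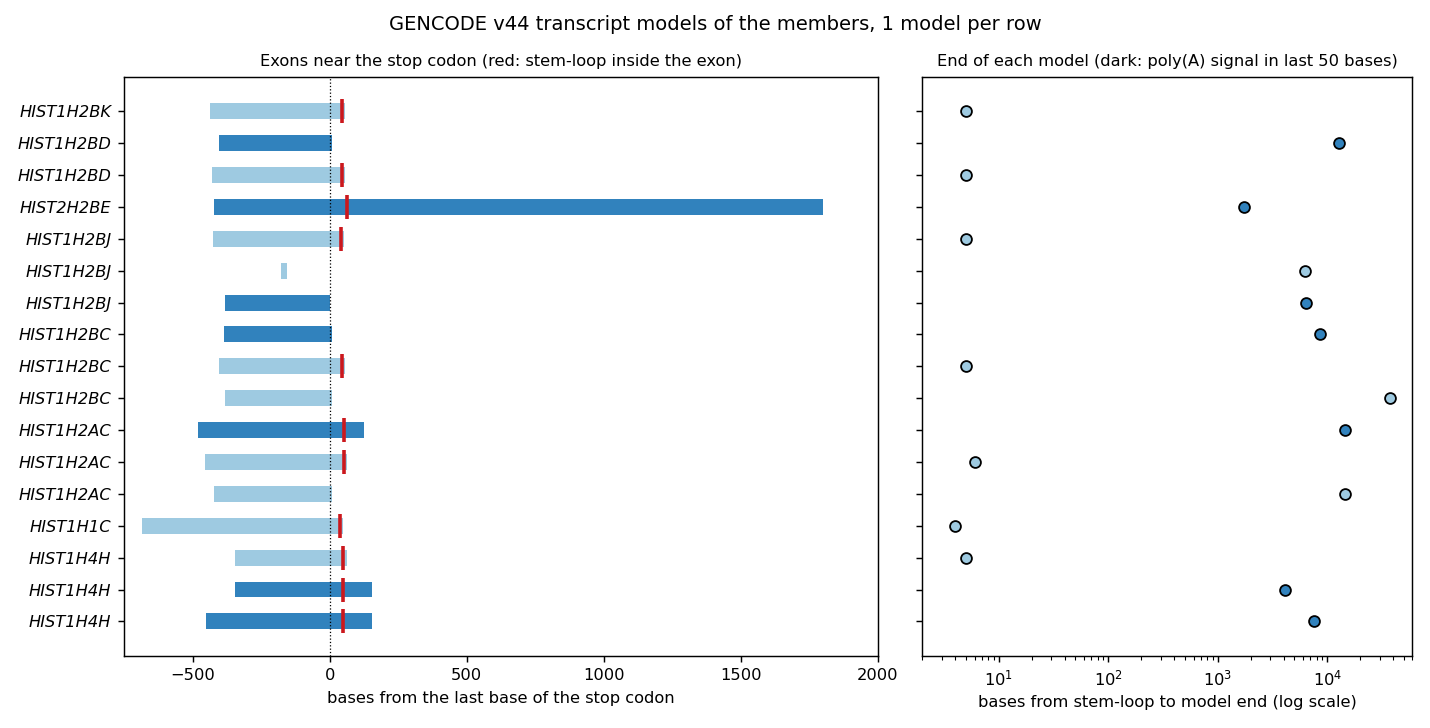
Transcript models of the 8 genes in GENCODE v44, 1 per row. Left, exons by their distance in bases from the last base of the stop codon, with the stem-loop in red where the exon holds it; right, distance in bases from the stem to the end of the model on a log scale, with dark colour for the 7 models that have a poly(A) signal in their last 50 bases. The 7 short models end 4 to 6 bases past the stem, and the rows of HIST1H2BK and HIST1H1C hold short models only.

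HIST1H1C and HIST1H2BK made up 72.2% to 75.3% of the summed values of the 8 genes in each group. The sum of the 8 genes was 17 to 26 RPKM in untreated cells (median 22), 24 to 25 with ATRA (median 24), 26 to 28 with palbociclib (median 27) and 25 to 28 with the combination (median 26). The untreated libraries thus overlapped those of ATRA and of the combination, and touched those of palbociclib at 26 RPKM.

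HIST1H2BK was the only member whose listed values in the treated groups did not overlap those in untreated cells, although it passed the threshold of 0.001 in no comparison. It stood at 4, 5 and 4 RPKM in the untreated libraries, at 6, 6 and 6 with ATRA, at 8, 6 and 7 with palbociclib and at 7, 7 and 7 with the combination. Every treated library lay above every untreated library, and the share of all tested genes with this joint pattern was not computed. In the single comparisons with untreated cells, 12.4% of tested genes were higher without overlap for ATRA, 5.74% for palbociclib and 15.3% for the combination. HIST1H2BK was tested only because of its treated libraries, since its untreated values alone would not have passed. Its tests against untreated cells, and the counts of tested members called, rest on that selection. With no minimum level set, its limma adjusted p against untreated cells was 0.0215 for ATRA, 0.0119 for palbociclib and 0.00249 for the combination. Over all tested genes, treated libraries that share a replicate number moved together (correlations of 0.438 to 0.908). They moved less with the untreated group (0.0453 to 0.367). The part of this in the HIST1H2BK difference from untreated cells was not tested. The means were 4.33 ± 0.577 in untreated cells, 6.0 with ATRA, 7.0 ± 1.0 with palbociclib and 7.0 with the combination (SD, n = 3). The 3 values with ATRA and the 3 with the combination were equal after rounding, which hides their spread.

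HIST1H1C encodes a linker histone that binds DNA where it enters and leaves the nucleosome, and it was the most abundant member. It stood at 9, 12 and 14 RPKM in untreated cells, at 12, 13 and 11 with ATRA, at 14, 15 and 11 with palbociclib and at 11, 14 and 11 with the combination. All 4 groups overlapped. The means were 11.7 ± 2.52, 12 ± 1.0, 13.3 ± 2.08 and 12 ± 1.73 RPKM in that order (SD, n = 3).

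The other H2B genes were near the rounding step and were not tested. HIST1H2BD was at 1, 2 and 3 RPKM in untreated cells, at 2, 2 and 2 with ATRA, at 2, 2 and 3 with palbociclib and at 2, 2 and 2 with the combination. HIST2H2BE was at 1 RPKM in all 9 libraries outside the combination and at 2, 1 and 2 in the combination. That difference spans 1 rounding step: with each value allowed to lie 0.5 RPKM to either side, the ratio of the combination to untreated cells, 1.67 as listed, could be anywhere from 0.778 to 4.33. HIST1H2BJ was at 1 RPKM in all 12 libraries, and HIST1H2BC was at 0, 0 and 2 in untreated cells and at 1 in the 9 treated libraries. None of these 4 genes had groups without overlap.

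HIST1H2AC was at 1, 1 and 1 RPKM in untreated cells, at 1, 1 and 2 with ATRA, at 1, 1 and 2 with palbociclib and at 1, 2 and 2 with the combination. The ratio of the combination to untreated cells was again 1.67, with a possible range of 0.778 to 4.33 from rounding. HIST1H4H was listed at 0 in all 12 libraries, so no fold was computed for it.

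**Figure D2:**
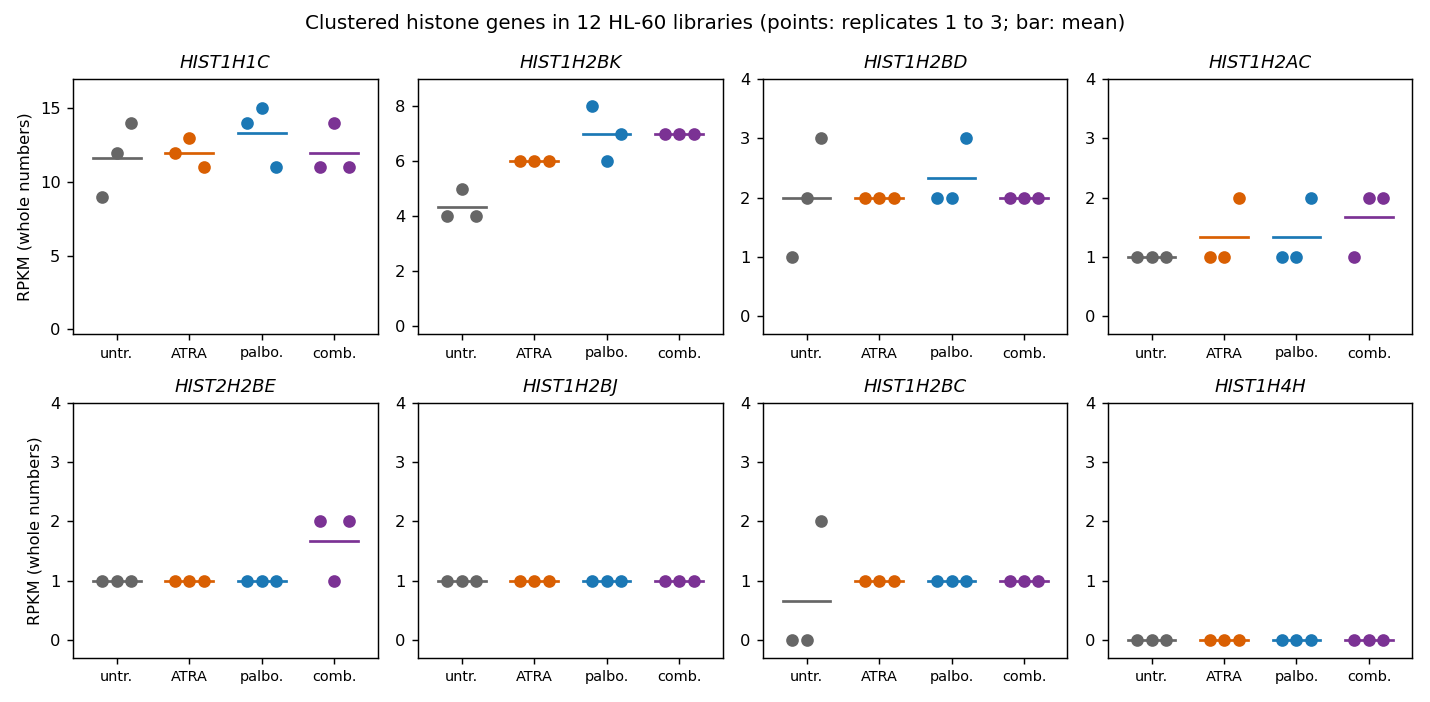
RPKM (whole numbers, vertical axis) of the 8 members in untreated cells (untr.), ATRA, palbociclib (palbo.) and the combination (comb.), with points for replicates 1 to 3 and a bar at their mean. The vertical scale differs between panels. HIST1H2BK is at 4 to 5 in untreated cells and at 6 to 8 in the treated ones, while HIST1H1C overlaps between all groups and the other 6 members stay at 0 to 3.

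By mean over the 12 libraries the order was HIST1H1C (12.2 RPKM), HIST1H2BK (6.08), HIST1H2BD (2.08), HIST1H2AC (1.33), HIST2H2BE (1.17), HIST1H2BJ (1.0), HIST1H2BC (0.917) and HIST1H4H (0). The lowest library of HIST1H1C (9 RPKM) lay above the highest of HIST1H2BK (8), and the lowest of HIST1H2BK (4) above the highest of HIST1H2BD (3). From HIST1H2BD down to HIST1H2BC neighbours overlapped. RPKM is a level per length, and the gene lengths that the authors used are not given in the sources used here. The exons of all GENCODE v44 models merged cover 495 bases in HIST1H2BK and 731 in HIST1H1C, against 2224 in HIST2H2BE and 2881 in HIST1H2BC. Multiplied by these lengths in kilobases, the mean values became 8.95 for HIST1H1C, 3.01 for HIST1H2BK, 2.64 for HIST1H2BC, 2.59 for HIST2H2BE, 2.22 for HIST1H2AC, 1.79 for HIST1H2BD, 1.05 for HIST1H2BJ and 0 for HIST1H4H. The order below HIST1H2BK thus depended on the length used, and with another length for HIST1H2BK its own place could change too.

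The H2B genes are near copies of each other, which bears on their values. The 5 coding sequences were 89.4% to 92.6% identical over 378 bases. In HIST1H2BK, 243 of the 329 windows of 50 bases in the coding sequence (73.9%) occurred elsewhere in the genome, against 52.9% in HIST2H2BE, 13.1% to 15.8% in HIST1H2BD, HIST1H2BJ and HIST1H2BC, 2.05% in HIST1H2AC and 0% in HIST1H1C and HIST1H4H. Reads from such windows cannot be placed by sequence. The study counted with htseq-count at its default settings, which leave out reads aligned to several places, and the read length is not given in the sources used here. Therefore the level of HIST1H2BK is uncertain. Its closest copies were H2BFS and CU639417.1 on chromosome 21, which share 201 of the 329 windows. These genes were named after their values were seen. H2BFS was at 2, 3 and 4 RPKM in untreated cells, 3, 4 and 3 with ATRA, 4, 3 and 3 with palbociclib and 3, 4 and 3 with the combination. CU639417.1 was at 2 to 3 RPKM in all 12 libraries. The untreated and treated libraries overlapped for both copies, unlike those of HIST1H2BK. At 2 to 4 RPKM the copies lie near the rounding step and no range from rounding was computed for them, which limits this contrast.

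The effect of ATRA alone was measured against untreated cells. HIST1H2BK was 1.38-fold higher by its means, and rounding alone allows 1.14-fold to 1.7-fold. On the scale of log2(RPKM + 0.1), which understates changes of low genes, the difference was 0.47 (standard error 0.11, limma adjusted p = 0.0131), short of the threshold of 0.001 but under 0.05. HIST1H1C differed by 0.06 (standard error 0.17, limma adjusted p = 0.836). Hence 0 of the 2 tested members were called, where 4.72% of the 7820 tested genes were called in either direction. At an adjusted p under 0.05, 1 of 2 was called higher, where 8.71% of all tested genes were. HIST1H2BK was also 1 of the genes whose 3 ATRA libraries all lay above the 3 untreated ones, as did 12.4% of the tested genes. Leaving out untreated replicate 1 or 3 moved its adjusted p to 0.0548 or 0.05, neither under 0.05.

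With palbociclib alone, HIST1H2BK was 1.62-fold higher than in untreated cells by its means (1.34-fold to 1.96-fold with rounding). The palbociclib and ATRA libraries met at 6 RPKM and were not tested against each other. The log2 difference was 0.68 (standard error 0.11, limma adjusted p = 0.00742). HIST1H1C differed by 0.20 (standard error 0.17, limma adjusted p = 0.614). Again 0 of 2 members passed 0.001, where 0.499% of all tested genes did in either direction. HIST1H2BK was 1 of the 71 genes that were higher with palbociclib at an adjusted p under 0.05, which is 0.908% of the genes tested, and 5.74% of all tested genes were higher without overlap. With the ATRA and combination libraries left out of the fit, its adjusted p was 0.0965. The HIST1H2BK value of 8 RPKM came from palbociclib replicate 1, the library with the highest sum of all RPKM values (390247, against 358455 to 387005 in the other 11), and the part of that sum in the value was not tested.

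With the combination, HIST1H2BK was 1.62-fold higher than in untreated cells (1.34-fold to 1.96-fold with rounding). The log2 difference was 0.69 (standard error 0.11, limma adjusted p = 0.00103), at the edge of the threshold. HIST1H1C differed by 0.05 (standard error 0.17, limma adjusted p = 0.841). Thus 0 of 2 members were called, where 8.04% of tested genes were in either direction. At an adjusted p under 0.05, 1 of 2 was called higher against 12.7% of tested genes, and 15.3% of tested genes were higher without overlap. Over 20 alternatives the adjusted p of HIST1H2BK ran from 0.000655 to 0.00861, and it passed 0.001 in 5 of them. The 3 comparisons with untreated cells share the same 3 untreated libraries and are not independent of each other. The genes taken as markers of other cell types summed to 5 to 7 RPKM with ATRA and the combination. They summed to 2 to 3 with palbociclib, where HIST1H2BK was higher too, and their part in its values was not tested.

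The study asked in particular what palbociclib adds to ATRA. From a count-based fit, it names HIST1H2BD and a gene written HIST1H2K as examples of histone genes that went up there. The rounded values used here do not allow that fit. HIST1H2BK was at 7 RPKM in the 3 combination libraries and at 6 in the 3 ATRA libraries, a step of 1 RPKM. The ratio of 1.17 could be 1.0 to 1.36 once rounding is allowed for. The log2 difference was 0.22 (standard error 0.11, limma adjusted p = 1). HIST1H1C differed by -0.01 (standard error 0.17, limma adjusted p = 1). Of all genes tested, limma called 0% at 0.001 in this comparison, with 44 higher and 243 lower at an unadjusted p under 0.05, and no other tool was run. HIST1H2BK was among the 68 genes (0.87%) that were higher without overlap. Of the 6 members that were not tested, HIST2H2BE and HIST1H2AC had higher listed means in the combination than with ATRA, 1.67 against 1.0 RPKM and 1.67 against 1.33. HIST1H2BD, HIST1H2BJ, HIST1H2BC and HIST1H4H had equal listed means. For HIST1H2BD, at 2.0 RPKM in both groups, rounding allows a ratio of 0.6 to 1.67, so these values cannot decide whether it rose. When the filter was lowered to 1 RPKM, which let 7 members be tested, HIST2H2BE differed by 0.62 (standard error 0.21, limma adjusted p = 0.827).

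Adding ATRA to palbociclib left HIST1H2BK at the same mean. Both groups averaged 7.0 RPKM, with a ratio of 1.0 (0.867 to 1.15 with rounding) and a log2 difference of 0.01 (standard error 0.11, limma adjusted p = 1). HIST1H1C differed by -0.15 (standard error 0.17, limma adjusted p = 0.707). Neither member was called, where 3.11% of all tested genes were in either direction.

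The effect of palbociclib in the presence of ATRA was then set against its effect in its absence. For HIST1H2BK the difference of these effects was -0.46 on the log2 scale (standard error 0.16, limma adjusted p = 1), and for HIST1H1C -0.21 (standard error 0.24, limma adjusted p = 1). Limma called 0% of the tested genes at 0.001 here, and 154 genes had a positive and 82 a negative difference at an unadjusted p under 0.05, HIST1H2BK among the latter.

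**Figure D3:**
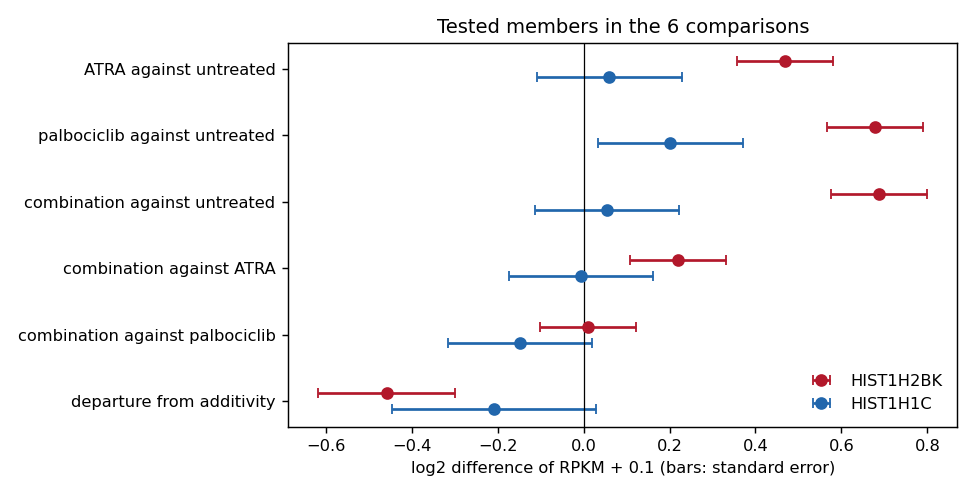
Difference of log2(RPKM + 0.1), horizontal axis, for HIST1H2BK (red) and HIST1H1C (blue) in the 6 comparisons, with bars of 1 standard error. HIST1H2BK lies at 0.47 to 0.69 in the 3 comparisons with untreated cells, whereas HIST1H1C lies between -0.21 and 0.20 throughout.

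Most of the other clustered histone genes were listed at or near 0 in these poly(A)+ libraries, although a few were not. They comprised 79 entries by symbol, which include pseudogenes and list HIST1H3D more than once. Of the 79, 57 were listed at 0 in all 12 libraries, 71 never exceeded 1 RPKM, and 3 were tested. None of the 3 was called in any of the 6 comparisons, and none at an adjusted p under 0.05. The 79 summed to 35 to 48 RPKM per library, above the 8 members, but the pseudogene HIST1H3PS1 alone held 15 to 22 RPKM of that. Next were the H2A genes HIST2H2AA3 at 4 to 6 and HIST2H2AA4 at 3 to 5, which are near-identical copies, and HIST2H2AC at 1 to 5. The members therefore held 2 of the 5 entries with clustered histone symbols that were high enough to test, with the pseudogene HIST1H3PS1 among the others. Histone genes outside the clusters mostly make variants in all phases of the cell cycle, and they ranged from 0 to 352 RPKM. H2AFZ was at 251 to 352 RPKM, H3F3A at 95 to 108, H3F3B at 79 to 96 and H2AFX at 50 to 85. CENPA at 12 to 18 RPKM and H2AFY at 11 to 12 overlapped HIST1H1C, and H2AFY2, H1F0 and H2AFJ were listed at 0 in all 12 libraries. In all, 0 of the 9 tested genes of the 12 listed passed 0.001 in any comparison. H2AFX, whose gene also gives both stem-loop and polyadenylated transcripts, was lower with palbociclib by the means, 60.0 ± 6.0 against 79.3 ± 5.51 RPKM in untreated cells (SD, n = 3, log2 difference -0.40, standard error 0.10, limma adjusted p = 0.0426), the opposite direction to HIST1H2BK.

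Among 8 factors that drive transcription of clustered histone genes, 5 were tested and those that passed the threshold all fell. CCNE1 (cyclin E1) was at 15, 13 and 15 RPKM in untreated cells, at 9, 8 and 8 with ATRA, at 5, 5 and 5 with palbociclib and at 5, 4 and 4 with the combination. It fell in all 3, with log2 differences of -0.77 for ATRA, -1.5 for palbociclib and -1.71 for the combination (limma adjusted p = 0.00032, 7.36e-05 and 1e-06). E2F1, a transcription factor of the G1 to S transition, was at 14, 12 and 12 RPKM in untreated cells, 9, 8 and 8 with ATRA, 5, 5 and 4 with palbociclib and 4, 4 and 3 with the combination. It fell with palbociclib (-1.42, limma adjusted p = 0.000287) and with the combination (-1.77, limma adjusted p = 5.45e-06). CDK2, the kinase partner of cyclin E, was at 19, 20 and 18 RPKM in untreated cells and at 12, 12 and 10 with the combination, and it fell there (-0.74, limma adjusted p = 0.000114).

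In counts, 1 of the 5 fell with ATRA, 2 with palbociclib and 3 with the combination, and none rose. The 2 that fell with palbociclib, CCNE1 and E2F1, were also the genes used above to check for that drug. These counts are therefore not independent of that check. Over all tested genes, 1.94%, 0.486% and 4.28% were called lower in the same comparisons. Their median log2 differences were -0.40, -1.01 and -0.76, where the medians over all tested genes were -0.01, 0 and -0.01. NPAT, the coactivator of these genes, was at 7, 7 and 7 RPKM in untreated cells and at 4, 6 and 5 with the combination (-0.50, standard error 0.19, limma adjusted p = 0.0667). CASP8AP2, also known as FLASH, acts in transcription and processing of histone mRNA. It was at 11, 11 and 10 RPKM in untreated cells, at 7, 10 and 10 with ATRA and at 4, 6 and 6 with palbociclib. With the combination CASP8AP2 was at 5, 7 and 7 (-0.76 from untreated cells, standard error 0.19, limma adjusted p = 0.0131). CCNE2, too low to test, was at 3 RPKM in the untreated libraries, 1 to 2 with ATRA and 0 in the 6 libraries with palbociclib.

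Of 11 factors of histone mRNA 3′ end formation and turnover, 10 were tested and 1 was called. It was lower with the combination, where 4.28% of all tested genes were called lower. At an adjusted p under 0.05 the combination had 3 lower and 1 higher, where 1381 and 996 of the 7820 tested genes were. SLBP was at 92, 88 and 88 RPKM in untreated cells, at 68, 52 and 55 with ATRA, at 53, 42 and 44 with palbociclib and at 48, 35 and 36 with the combination. Every treated library lay below every untreated one. Lower values without overlap were found in 1350 of the 7820 tested genes for ATRA, 741 for palbociclib and 1614 for the combination. The log2 differences from untreated cells were -0.62, -0.95 and -1.18 (limma adjusted p = 0.00843, 0.00358 and 0.000104), so that SLBP fell past the threshold with the combination. The medians of the 10 genes were 0.01, -0.03 and -0.02. HIST1H2BK and SLBP thus stood on opposite sides of their untreated values in all 9 treated libraries, and whether the changes are related was not tested. Bulk RNA does not show what share of the cells was in S phase, and no measure of cell cycle phase was analysed here.

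**Figure D4:**
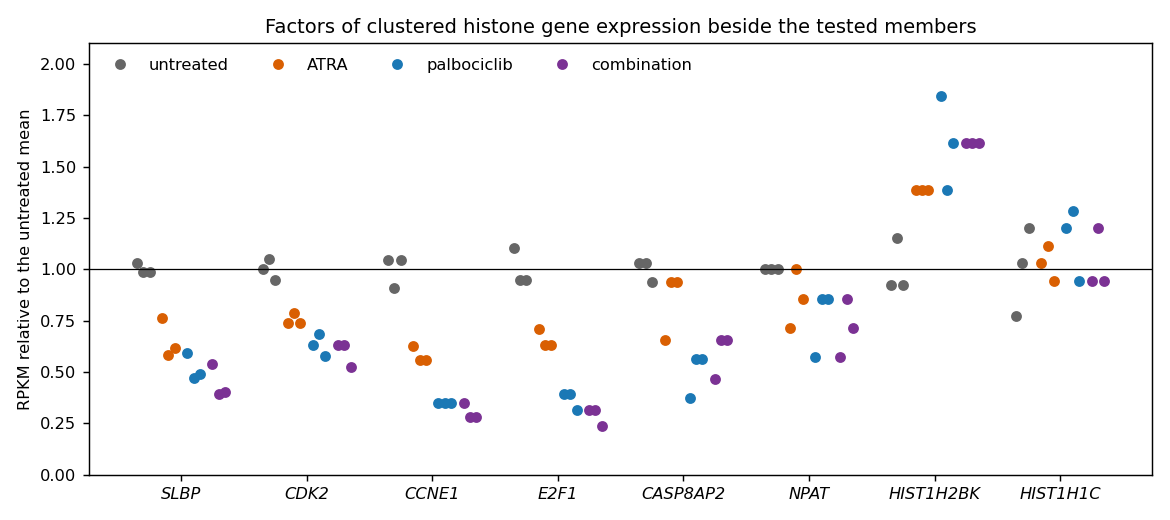
RPKM in each library divided by the mean of the 3 untreated libraries (vertical axis) for SLBP, for 5 factors of clustered histone gene transcription and for the tested members, coloured by group. SLBP, CDK2, CCNE1, E2F1 and CASP8AP2 lie below 1 in all 9 treated libraries, and NPAT lies at or below 1. HIST1H2BK lies above 1 in all 9, while HIST1H1C lies on both sides.

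The promoters are shown for HIST1H2BK and for HIST1H2BJ, the H2B member closest to it in coding sequence (92.1% identical). The 250 bases before the RefSeq transcription start were found for all 8 members (GRCh38.p14). The 2 promoters were identical at 204 of 243 aligned bases (84.0%), while HIST1H2BK averaged 6.08 RPKM and HIST1H2BJ 1.0, or 3.01 and 1.05 when multiplied by the merged exon lengths. The larger share of repeated windows in HIST1H2BK (73.9% against 13.1%) leaves this comparison uncertain. Capitals mark 3 motifs on either strand, each read 5′ to 3′: the CCAAT box (CCAAT), the TATA box (TATAAA) and the octamer bound by OCT1 (ATTTGCAT).

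HIST1H2BK (chr6:27146859-27147108, minus strand): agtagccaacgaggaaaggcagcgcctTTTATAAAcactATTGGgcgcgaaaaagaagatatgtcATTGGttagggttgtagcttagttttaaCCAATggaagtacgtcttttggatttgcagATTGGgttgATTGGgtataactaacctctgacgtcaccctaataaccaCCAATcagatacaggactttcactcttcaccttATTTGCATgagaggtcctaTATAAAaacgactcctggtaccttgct
HIST1H2BJ (chr6:27132796-27133045, minus strand): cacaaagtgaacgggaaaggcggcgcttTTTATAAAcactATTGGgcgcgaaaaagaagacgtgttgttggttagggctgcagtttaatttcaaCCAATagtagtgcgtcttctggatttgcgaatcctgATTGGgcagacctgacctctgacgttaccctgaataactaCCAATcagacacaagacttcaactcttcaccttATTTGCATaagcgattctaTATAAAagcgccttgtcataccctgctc

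CCAAT was found in 7 of the 8 promoters (33% of 27305 promoters of the same length), TATAAA in 6 (11.1%) and the octamer in 5 (1.66%), which were those of HIST1H2AC and of 4 of the 5 H2B genes, all but HIST1H2BD. HIST1H2AC and HIST1H2BC start 246 bases apart in opposite directions, so their windows are largely the same sequence. A match of letters is a description and does not show that a factor was bound. HIST1H2BK and HIST1H2BJ both held all 3 motifs, and at 1 RPKM in all 12 libraries HIST1H2BJ could differ between groups by 0.333-fold to 3.0-fold within the rounding.

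The tested genes whose pattern over the 12 libraries was most like the mean of HIST1H2BK and HIST1H1C, each centred and scaled, were CST3 (Pearson r = 0.955), FKBP8 (0.929), CORO1A (0.891), CSTA (0.889) and POLR2G (0.885). These values describe 12 libraries that share groups and normalization. CST3, which encodes cystatin C, was at 10, 12 and 12 RPKM in untreated cells and at 12 to 13 in the 9 treated libraries, a range of a few rounding steps. HIST1H2BK and HIST1H1C themselves were less alike, with r = 0.231.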

How the data were processed

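Per the labels, poly(A)+ RNA of 12 HL-60 libraries (3 per group) was prepared with a TruSeq kit, and reads were aligned to hg38 with HISAT2 and counted with htseq-count at default settings. The deposited table holds 1 score per gene and library, which are RPKM values that the authors rounded to whole numbers. Read counts, gene lengths, the annotation release and the rounding rule are not given in the sources used here. The study gives only an average number of reads per sample. With no counts, the depth of each library is unknown and no counting interval was given. The study's methods name a count-based fit, which RPKM values do not allow.

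Genes with at least 5 RPKM in at least 3 libraries (7820 of 58233) were analysed with limma 3.58.1 (R 4.3.3) on log2(RPKM + 0.1), with 1 mean per group over all 12 libraries, a variance trend and two-sided tests. P-values were adjusted by Benjamini-Hochberg over all tested genes, with the threshold for a call at 0.001. The fit was tested on simulated data. The 8 members were named whether or not they passed the filter. Other genes came from lists of clustered histone genes, histone genes outside the clusters, factors of their transcription, and factors of mRNA 3′ end formation and turnover, with values for every called gene or, where none was called, for the 4 highest. The members and lists were chosen with earlier results of these data known. H2AFX statistics and the values of CCNE2, NPAT, CASP8AP2, CENPA, H2AFY, H2AFY2, H1F0 and H2AFJ were given beyond that rule, as were H2BFS and CU639417.1.

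Between treated groups, libraries that share a replicate number moved together (correlations of deviations from the group means 0.438 to 0.908 over the 7820 genes) and less with the untreated group (0.0453 to 0.367). Alternatives were other filters, pseudocounts of 0.5 and 1, median-ratio scaling, no variance trend, only the groups compared, a replicate block, an adjusted p under 0.05 and each library left out. The same block on the 9 treated libraries alone was added after seeing the data. Between 17.9% and 36.5% of values were equal between 2 libraries of a group, so none was a copy of another in its group. Libraries of different groups were not compared in this way.

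Gene models came from GENCODE v44 (GRCh38), and promoters from RefSeq (GRCh38.p14). Windows of 50 bases were looked up on both strands of the main chromosomes with Python 3.11.15. All 8 members matched by Ensembl identifier.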

Additional observations from a re-analysis of the deposited data

How the results depend on the processing

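With the combination against untreated cells, the number of members called higher was 0 as reported and 1 (HIST1H2BK) under median-ratio scaling (log2 difference 0.71, limma adjusted p = 0.000714), without the variance trend (0.69, 0.000866) and at an adjusted p under 0.05. Leaving out 1 library at a time gave 0 to 1, with 1 without untreated replicate 2 (adjusted p = 0.000752), without palbociclib replicate 1 (0.000655) or without palbociclib replicate 2 (0.000691). For ATRA and for palbociclib against untreated cells the number was 0 as reported and 1 at an adjusted p under 0.05, and 0 in the other alternatives. HIST1H2BK kept a positive log2 difference from untreated cells in all 20 alternatives of each comparison, with adjusted p of 0.0061 to 0.0548 for ATRA, 0.00503 to 0.0965 for palbociclib and 0.000655 to 0.00861 for the combination. Its adjusted p for the combination against ATRA ran from 0.0585 (only the groups compared) to 1.

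Small differences changed sign when 1 library was left out. HIST1H1C ran from -0.11 to 0.20 for ATRA against untreated cells, reaching -0.114 without untreated replicate 1. For the combination against untreated cells it ran from -0.12 to 0.20, with -0.12 without untreated replicate 1 and -0.061 without combination replicate 2. For the combination against ATRA it ran from -0.121 to 0.053, with 0.053 without ATRA replicate 2 and 0.051 without combination replicate 1 or 3. HIST1H2BK ran from -0.095 (without palbociclib replicate 2) to 0.11 for the combination against palbociclib. Other small differences of HIST1H1C kept their sign but not their size, at 0.028 to 0.344 for palbociclib against untreated cells, -0.28 to -0.058 for the combination against palbociclib and -0.35 to -0.034 for the departure from additivity. The cause was not tested.

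With the replicate block, HIST1H2BK had log2 differences from untreated cells of 0.47 for ATRA (adjusted p = 0.0139), 0.68 for palbociclib (0.00782) and 0.69 for the combination (0.00158). Its adjusted p was 0.735 for the combination against ATRA (0.312 in the 9 treated libraries alone, an alternative chosen after seeing the data). Under the replicate block the number of members called was 0 in each comparison. The filter of 5 RPKM left 6 of the 8 members untested. With a filter of 1 RPKM 7 were tested and none was called, and these tests rest on values of 0 to 3 whole RPKM for 5 of them.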
